A study of Mus musculus with 48 samples.

Results

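Abhd1, Cgref1, Atraid, Mrpl33 and the gene model Gm2420 are 5 genes of mouse chromosome 5 that lie a few megabases from Htt, the gene altered in the Q140 knock-in. They were picked from the 48795 genes of the count table, of which 19547 were tested, because their counts in these libraries differed with the Q140 allele. Their differences with Q140 are for that reason described without a test, and tests are given only for Msh3 genotype, for sex and for other genes near Htt.

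RNA was sequenced from the cerebral cortex of 48 mice aged 12 months, with 4 females and 4 males in each of 6 genotypes. The carriers of the knock-in were Q140 x Msh3-/-, Q140 x Msh3+/- and Q140 mice, and the non-carriers were Msh3-/-, Msh3+/- and wild-type (WT) mice. All 24 carriers are labelled heterozygous for Q140, so each keeps a normal Htt allele, and all 6 groups are labelled C57BL/6. The strain in which the Q140 allele was made and the part of Msh3 that the mutants lack are not given in the sources used here. A protocol label mentions striatum at another age, while tissue, age and title labels all state cortex at 12 months.

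Htt encodes huntingtin, and a long CAG repeat in it causes Huntington disease. Msh3 is a mismatch repair gene known for its part in lengthening that repeat in somatic cells. A knock-in allele is bred together with the DNA that flanks it, because loci that lie close on a chromosome are seldom separated by recombination, and nearby genes can keep the sequence of the strain in which the allele was made. Any flanking segment kept with the Q140 allele comes together with the repeat, so the repeat and linked sequence cannot be told apart in this design. No genotype of the flanking DNA is given in the sources used here. The length of such a segment, and whether it reaches the genes described in each carrier, was not tested.

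All 5 genes lie on the same side of Htt (34761740 to 34912534, plus strand), at lower coordinates. Positions follow the GENCODE M21 annotation of GRCm38. Cgref1 (ENSMUSG00000029161, 30933143 to 30945591, minus strand) encodes a calcium-binding EF-hand protein named cell growth regulator, and its start lies 3.82 Mb from that of Htt. Abhd1 (ENSMUSG00000006638, 30950066 to 30955091, plus strand) belongs to the alpha/beta-hydrolase domain family and starts 3.81 Mb from Htt, and this annotation lists it as a processed transcript. Atraid (ENSMUSG00000013622, 31048312 to 31054623, plus strand), 3.71 Mb from Htt, encodes a membrane protein induced by retinoic acid. Mrpl33 (ENSMUSG00000106918, 31596935 to 31664384, plus strand), 3.17 Mb from Htt, encodes a protein of the large subunit of the mitochondrial ribosome. Gm2420 (ENSMUSG00000082305, 32720330 to 32736194, plus strand), 2.04 Mb from Htt, is annotated as a transcribed unprocessed pseudogene.

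Gm2420 resembles part of Sfi1, a gene of chromosome 11 that encodes a centrosomal protein, known in yeast and human to bind centrin. The transcript Gm2420-201 aligned with Sfi1-201 over 2170 columns, of which 93.6% were identical, with 114 mismatches and 25 gap columns. The longest run of identical bases was 78. A window of 150 bases from each transcript (GENCODE M21) is shown because a read can be given to Gm2420 or to Sfi1 only by the bases in which they differ, and the 8 differing bases are in capitals. 
Gm2420-201, bases 1 to 150: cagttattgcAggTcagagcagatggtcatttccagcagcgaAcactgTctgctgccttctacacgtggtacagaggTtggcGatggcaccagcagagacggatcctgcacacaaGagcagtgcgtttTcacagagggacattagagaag
Sfi1-201, bases 1536 to 1685: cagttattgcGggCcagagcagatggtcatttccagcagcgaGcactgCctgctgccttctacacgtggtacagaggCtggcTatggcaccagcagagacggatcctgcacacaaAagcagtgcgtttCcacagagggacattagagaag

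The RefSeq promoter windows (GRCm38.p6, 250 bases before to 50 bases after the start, each read on the gene's own strand) were matched for Cgref1, Atraid and Mrpl33. They are shown because these genes have a named start near Htt and differ with the allele, Cgref1 and Mrpl33 upward and Atraid downward. 
Cgref1, chr5:30945431-30945730, minus strand: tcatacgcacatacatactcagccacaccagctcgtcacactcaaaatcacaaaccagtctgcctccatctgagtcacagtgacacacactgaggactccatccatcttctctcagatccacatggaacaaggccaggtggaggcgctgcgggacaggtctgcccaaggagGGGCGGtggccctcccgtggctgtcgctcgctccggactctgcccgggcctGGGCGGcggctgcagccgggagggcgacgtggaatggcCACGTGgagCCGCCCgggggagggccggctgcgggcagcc
Atraid, chr5:31048390-31048689, plus strand: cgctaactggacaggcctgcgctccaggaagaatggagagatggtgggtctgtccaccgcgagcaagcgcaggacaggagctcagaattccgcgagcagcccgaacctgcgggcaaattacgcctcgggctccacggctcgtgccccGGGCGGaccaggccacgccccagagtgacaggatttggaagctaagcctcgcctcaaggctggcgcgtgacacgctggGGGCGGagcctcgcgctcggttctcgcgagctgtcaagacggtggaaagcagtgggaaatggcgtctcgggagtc
Mrpl33, chr5:31613701-31614000, plus strand: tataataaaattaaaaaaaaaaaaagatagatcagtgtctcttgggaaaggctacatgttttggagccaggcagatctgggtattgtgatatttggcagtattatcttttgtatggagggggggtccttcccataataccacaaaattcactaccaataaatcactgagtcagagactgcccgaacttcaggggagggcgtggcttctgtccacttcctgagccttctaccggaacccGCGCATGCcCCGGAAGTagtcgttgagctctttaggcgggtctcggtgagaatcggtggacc

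Capitals mark motif matches on either strand, none of which overlaps another. The letters searched were GGGCGG (the GC box), CACGTG (the E-box), CCGGAAGT (an ETS site) and GCGCATGC (the core of an NRF1 site). The Cgref1 window held 3 GC boxes and 1 E-box, and the Atraid window held 2 GC boxes. A second RefSeq entry of Cgref1, not shown, has a window that overlaps the first and held the same matches. The Mrpl33 window held 1 ETS match and 1 NRF1 core. Among 32851 RefSeq promoter windows of the same length, 35.7% held GGGCGG, 7.15% CACGTG, 3.89% CCGGAAGT and 2.71% GCGCATGC. CCAAT and TATAAA were searched as well and are not capitalised, with 1 CCAAT in the Mrpl33 window, in 37.4% and 13.6% of all windows. No motif was found in all 3 windows, and a match is a description of the letters only.

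Library totals ran from 37.7 to 68.3 M counts with a median of 48.6 M. Levels are counts scaled to the normalized library total (CPM). The summed CPM of 4 markers of cortical glutamatergic neurons was 1661 to 1882 in carriers and 1586 to 1836 in non-carriers, while that of 5 striatal projection neuron markers was 63.0 to 83.2 CPM in carriers and 61.5 to 75.7 CPM in non-carriers, with 1 of 5 called higher. Msh3 had more counts in the mutants, with 95.3 ± 8.03 CPM in Q140 x Msh3-/-, 57.9 ± 3.01 CPM in Q140 x Msh3+/-, 99.2 ± 8.15 CPM in Msh3-/- and 60.1 ± 3.06 CPM in Msh3+/- libraries, against 21.8 ± 0.979 CPM in Q140 and 22.4 ± 1.16 CPM in WT libraries (SD, n = 8). The 3 labelled Msh3 genotypes did not overlap in it, but a count per gene does not show whether the product is lost, so Msh3 genotype below is that of the labels. The 7 libraries whose summed choroid plexus or pituitary markers exceeded 5 times the median were all male non-carriers. Choroid plexus markers, 7 of 9 tested, summed to between 3.46 and 13.6 CPM in carriers and between 3.78 and 622 CPM in non-carriers. Pituitary markers, 3 of 5 tested, summed to between 0.379 and 3.68 CPM in carriers and between 0.273 and 45.2 CPM in non-carriers, with 1 of 3 called lower, and Gh and Prl had no count in some libraries. Astrocyte markers summed to a median of 4696 CPM in carriers and 5282 CPM in non-carriers, with 3 of 5 called lower. The sample names of WT replicates F3 and F4 begin with MQC and PQ. Those of Q140 replicates F4 and M4 begin with Msh3Q, and those of all other libraries with Mh3Q. WT replicates F3 and F4 had the lowest Cgref1 levels of the 48. In bulk tissue, fewer cells of a type and less RNA per cell cannot be told apart.

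Abhd1 was higher in every carrier than in every non-carrier. Carriers had from 4.79 to 8.16 CPM with a median of 6.52 CPM, and non-carriers from 1.97 to 3.82 CPM with a median of 2.91 CPM. The closest libraries were Q140 replicate M4 and WT replicate F2, and the ranges did not overlap. Over all genes tested, 0.0102% had ranges that did not overlap, and these 2 genes were Abhd1 and Gm2420, both chosen for their difference with Q140. The fitted log2 difference of carriers over non-carriers, averaged over the Msh3 genotypes, was 1.17 ± 0.056 (SE), which is 2.25-fold with a 95% interval of 2.09 to 2.43. This interval, like those of the other genes with Q140 below, takes no account of how the genes were chosen and is not a test.

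By genotype, Abhd1 had 5.66, 6.73 and 7.74 CPM (lowest, median and highest of 8) in Q140 x Msh3-/-, 5.68, 6.47 and 8.16 CPM in Q140 x Msh3+/-, and 4.79, 6.25 and 7.43 CPM in Q140 libraries. In the non-carriers the same 3 values were 2.40, 3.03 and 3.64 CPM in Msh3-/-, 1.97, 2.56 and 3.44 CPM in Msh3+/-, and 2.27, 3.15 and 3.82 CPM in WT libraries. The means were 6.73 ± 0.60 CPM in Q140 x Msh3-/-, 6.65 ± 0.815 CPM in Q140 x Msh3+/- and 6.11 ± 0.839 CPM in Q140, against 3.004 ± 0.377 CPM in Msh3-/-, 2.63 ± 0.456 CPM in Msh3+/- and 3.07 ± 0.579 CPM in WT (SD, n = 8). Neighbouring groups in the order of these means differed by less than the larger of their SDs, except Q140 and WT, which stand on either side of the gap. WT replicates F3 and F4 had 2.27 and 2.32 CPM, below the 2.78 to 3.82 CPM of the other 6 WT libraries. Without these replicates, Q140 over WT was 0.85 ± 0.095 on the log2 scale, against 1.01 ± 0.096 with them.

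Abhd1 lies on the opposite strand from Preb, which encodes an exchange factor of vesicle formation at the endoplasmic reticulum. Of 1758 exonic bases of Abhd1, 1575 (89.6%) are also exonic in Preb. Per the labels the library kit keeps strand, but the strand setting of the counting is not given, so whether reads of this pair were told apart is not known. Preb had 61.3 ± 2.32 CPM in carriers and 61.8 ± 2.95 CPM in non-carriers (SD, n = 24), and its log2 difference was -0.01 ± 0.019 (edgeR adjusted p = 0.852). Preb was not called, and the part of its reads in the Abhd1 counts was not tested.

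**Figure D1:**
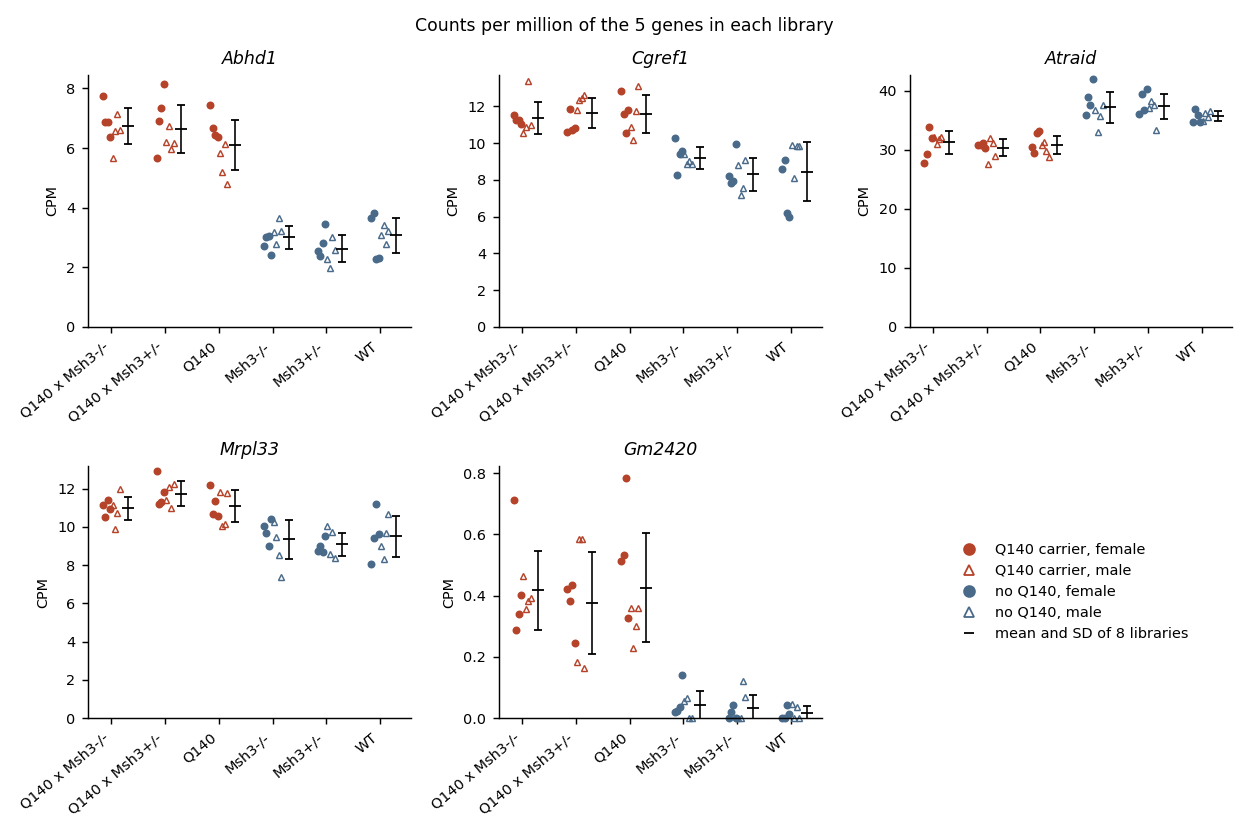
CPM (vertical axes, starting at 0) of each gene in the 48 libraries, by genotype, with carriers of Q140 left of non-carriers, filled circles for females, open triangles for males, and the mean and SD of 8 libraries beside each group. Abhd1 and Gm2420 separate all carriers from all non-carriers, Atraid is lower in carriers, and the ranges of Mrpl33 overlap most.

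Cgref1 was also higher in carriers, by less. Its levels ran from 10.2 to 13.4 CPM in carriers, with a median of 11.4 CPM, and from 5.95 to 10.3 CPM in non-carriers, with a median of 8.85 CPM. The ranges crossed by 1 library on each side, Q140 replicate M2 and Msh3-/- replicate F1. Group means were 11.4 ± 0.865 CPM in Q140 x Msh3-/-, 11.7 ± 0.824 CPM in Q140 x Msh3+/- and 11.6 ± 1.04 CPM in Q140, against 9.21 ± 0.593 CPM in Msh3-/-, 8.31 ± 0.908 CPM in Msh3+/- and 8.45 ± 1.6 CPM in WT (SD, n = 8). Within the carriers and within the non-carriers, these means differed by less than the largest SD among them.

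WT varied most for Cgref1, and its spread rested on replicates F3 and F4 at 6.19 and 5.95 CPM, beside 8.11 to 9.92 CPM in the other 6 WT libraries. The log2 difference of carriers over non-carriers was 0.42 ± 0.044 (SE), and 0.37 without the 2 WT replicates. For Q140 over WT it was 0.47 ± 0.076 with them and 0.33 ± 0.068 without them. Parts of a Cgref1 transcript resemble B4galt7 on chromosome 13 (90.6% identity over 203 bases) and the gene model Gm29761 on chromosome 9 (90% over 200 bases), so some reads of these stretches are uncertain.

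Atraid was the only one of the 5 genes that was lower in carriers. Carriers had from 27.6 to 33.9 CPM with a median of 31.0 CPM, and non-carriers from 33.1 to 42.0 CPM with a median of 36.7 CPM. There were 2 carrier libraries within the non-carrier range and 2 non-carriers within the carrier range. Group means were 31.3 ± 1.91 CPM in Q140 x Msh3-/-, 30.4 ± 1.43 CPM in Q140 x Msh3+/- and 30.8 ± 1.54 CPM in Q140, against 37.2 ± 2.62 CPM in Msh3-/-, 37.4 ± 2.13 CPM in Msh3+/- and 35.7 ± 0.873 CPM in WT (SD, n = 8). The difference was -0.25 ± 0.023 on the log2 scale, or 0.840-fold with a 95% interval of 0.814 to 0.866. It had the smallest standard error of the 5, at the highest count.

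Atraid starts head to head with Slc5a6, which encodes the sodium-dependent transporter of biotin and pantothenate. Of the RefSeq promoter windows of Slc5a6, entry 1 overlaps that of Atraid and entry 2 does not. On the other strand, 396 of the 2082 exonic bases of Atraid (19.0%) are exonic in Slc5a6, and the strand setting of the counting is not given. Slc5a6 rose with Q140, by 0.12 ± 0.027 on the log2 scale (edgeR adjusted p = 0.0119), to a median of 23.5 CPM in carriers, against 21.7 CPM in non-carriers. Neighbours that share a start region thus had differences of opposite sign. Downstream of Atraid, Cad, which encodes the enzyme of the first steps of pyrimidine synthesis, rose by 0.14 ± 0.035 (edgeR adjusted p = 0.0276).

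Mrpl33 was higher in carriers, by the least of the 4 genes that were higher. Carriers had from 9.92 to 12.9 CPM with a median of 11.3 CPM, and non-carriers from 7.39 to 11.2 CPM with a median of 9.46 CPM. The ranges overlapped widely, with 12 carriers below the highest non-carrier (WT replicate F3) and 6 non-carriers above the lowest carrier. Group means were 10.98 ± 0.607 CPM in Q140 x Msh3-/-, 11.8 ± 0.647 CPM in Q140 x Msh3+/- and 11.1 ± 0.822 CPM in Q140, against 9.35 ± 1.02 CPM in Msh3-/-, 9.09 ± 0.60 CPM in Msh3+/- and 9.51 ± 1.07 CPM in WT (SD, n = 8). The log2 difference was 0.27 ± 0.035, or 1.21-fold with a 95% interval of 1.15 to 1.27.

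The gene body of Mrpl33 overlaps that of Rbks, which encodes ribokinase, on the other strand, without a shared exonic base in this annotation. Rbks had a log2 difference of -0.01 ± 0.088 (edgeR adjusted p = 0.974). Mrpl33 shares 261 of its 7326 exonic bases with the gene model Gm43809 on its own strand, and reads there cannot be assigned by strand. Of the 47 other tested genes named for proteins of the large subunit of the mitochondrial ribosome in this symbol series (Mrpl), none was called with Q140 in either direction. Of these, 5 had an unadjusted edgeR p under 0.05, and the median log2 difference was 0.005, beside -0.001 over all genes tested.

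Gm2420 was close to absent without the allele. Carriers had from 8 to 44 counts per library and 486 in all, and non-carriers from 0 to 6 counts per library and 35 in all. In CPM, carriers ran from 0.164 to 0.784 with a median of 0.383, and non-carriers from 0 to 0.141 with a median of 0.0204. No carrier was without a count, while 2 of 8 Msh3-/-, 4 of 8 Msh3+/- and 4 of 8 WT libraries had 0. The ranges did not overlap.

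Group means of Gm2420 were 0.417 ± 0.130 CPM in Q140 x Msh3-/-, 0.375 ± 0.166 CPM in Q140 x Msh3+/- and 0.426 ± 0.177 CPM in Q140, against 0.0430 ± 0.0462 CPM in Msh3-/-, 0.0319 ± 0.0442 CPM in Msh3+/- and 0.0176 ± 0.0210 CPM in WT (SD, n = 8). The carriers' means and the non-carriers' means each lay within an SD of each other. The fitted log2 difference was 3.76 ± 0.277 (SE), or 13.6-fold with a 95% interval of 9.30 to 19.8, and it depends on few counts in the non-carriers. Gm2420 passed the filter on low counts through the carrier groups alone, so it could be tested only because it was high there, whereas the other 4 genes had at least 10 counts in every library of all 6 groups. Sfi1 had 23.1 ± 2.56 CPM in carriers and 23.3 ± 2.85 CPM in non-carriers (SD, n = 24), a log2 difference of -0.01 ± 0.048 (edgeR adjusted p = 0.962). Reads that fit both copies are uncertain, and the handling of such reads is not given in the sources used here.

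Per exonic length, the order of the genes was the same in carriers and non-carriers. In mean FPKM (fragments per kilobase of exon, scaled to the library total, as deposited), carriers had 14.8 for Atraid, 5.55 for Cgref1, 3.70 for Abhd1, 1.54 for Mrpl33 and 0.176 for Gm2420. Non-carriers had 17.6 FPKM for Atraid, 4.15 for Cgref1, 1.65 for Abhd1, 1.27 for Mrpl33 and 0.0133 for Gm2420. Htt itself had 10.1 FPKM in carriers and 10.3 FPKM in non-carriers, and its log2 difference of -0.04 ± 0.021 was not called (edgeR adjusted p = 0.364). The FPKM of Mrpl33 rests on 7326 exonic bases, the longest of the 5 genes. On the scale of FPKM, Abhd1 stood below Cgref1 in both groups, and the gap was smaller in carriers.

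The adjusted p threshold of 0.05 was passed with Q140 by 5 of the 5 genes in the contrast averaged over Msh3 genotypes, where 1.47% of all genes tested were called, 0.711% higher and 0.762% lower. On the Msh3-/- genotype it was passed by 3 of 5 (0.0205% of all genes), on Msh3+/- by 5 of 5 (0.0512%) and on Msh3+/+ by 4 of 5 (0.102%). These counts follow from how the genes were chosen. Just inside the choice stood Mrpl33, at 0.37 ± 0.061 (log2) on Msh3+/-. Just outside it stood Slc5a6, at 0.16 ± 0.046, and Zfp513, at 0.15 ± 0.045, in Q140 over WT.

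The difference with Q140 kept its sign on each Msh3 genotype for all 5 genes. For Abhd1 the log2 difference was 1.16 ± 0.094 on Msh3-/-, 1.35 ± 0.099 on Msh3+/- and 1.01 ± 0.096 on Msh3+/+ (SE). For Cgref1 it was 0.30 ± 0.075 on Msh3-/-, 0.49 ± 0.077 on Msh3+/- and 0.47 ± 0.076 on Msh3+/+. For Atraid it was -0.25 ± 0.040 on Msh3-/-, -0.30 ± 0.040 on Msh3+/- and -0.21 ± 0.040 on Msh3+/+. Abhd1 and Atraid thus had their largest sizes on Msh3+/-, and Cgref1 had its smallest on Msh3-/-. For Mrpl33 it was 0.24 ± 0.061 on Msh3-/-, 0.37 ± 0.061 on Msh3+/- and 0.22 ± 0.061 on Msh3+/+. For Gm2420 it was 3.25 ± 0.430 on Msh3-/-, 3.62 ± 0.491 on Msh3+/- and 4.41 ± 0.515 on Msh3+/+, resting on 17 counts in all Msh3-/-, 11 in all Msh3+/- and 7 in all WT libraries. The 3 contrasts use separate libraries, but each took part in choosing the genes. The shared sign follows in part from that choice and is a description only.

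**Figure D2:**
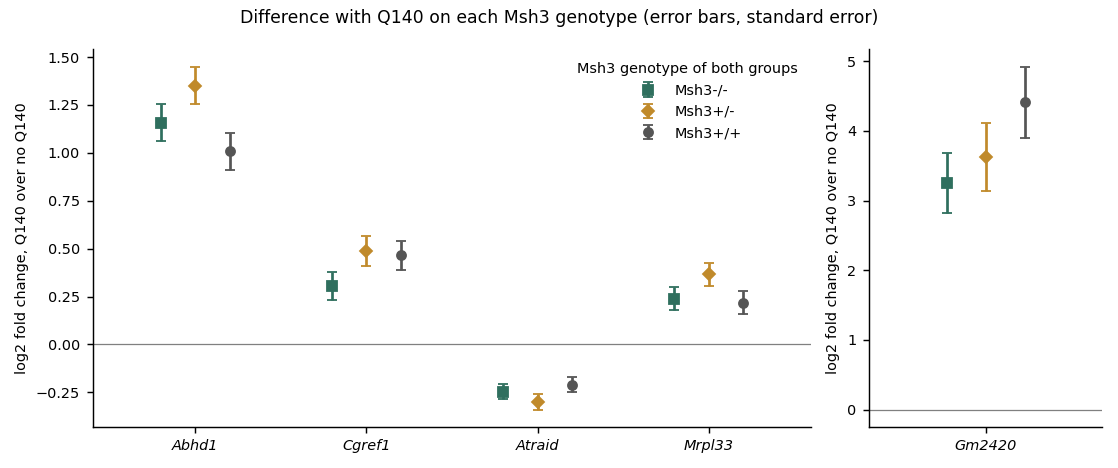
Log2 fold change of Q140 carriers over non-carriers (vertical axes, the right panel on its own scale) for each gene on the Msh3-/-, Msh3+/- and Msh3+/+ genotypes, with the standard error. Abhd1 ranges from 1.01 to 1.35, Atraid is below 0 on each genotype, and Gm2420 ranges from 3.25 to 4.41.

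Set against each other, the Q140 differences on the 3 Msh3 genotypes are given as descriptions, since the Q140 contrasts chose the genes. For Abhd1, the difference on Msh3+/- minus that on Msh3+/+ was 0.34 ± 0.142 (log2, SE). On Msh3-/- minus Msh3+/+ it was 0.15 ± 0.138, and on Msh3-/- minus Msh3+/- it was -0.19 ± 0.141. The first of these was 0.50 without WT replicates F3 and F4 and 0.23 without the 7 libraries rich in choroid plexus or pituitary markers, and the second was 0.31 without WT replicates F3 and F4. For Cgref1, Msh3-/- minus Msh3+/+ gave -0.16 ± 0.107, which was -0.09 without WT replicate F4, -0.02 without WT replicates F3 and F4 and -0.26 without the 7 marker-rich libraries. The same difference was -0.04 ± 0.056 for Atraid, 0.02 ± 0.086 for Mrpl33 (-0.02 without WT replicates F3 and F4) and -1.16 ± 0.926 for Gm2420. Across all genes tested, 0% were called in each of these 3 differences.

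Msh3 genotype as labelled, which took no part in choosing the genes, was tested next. None of the 5 was called in Msh3-/- over Msh3+/+ averaged over Q140 status, where 0.215% of all genes were, and 0 of 5 had an unadjusted edgeR p under 0.05, beside 14.9% of all genes. DESeq2 also called 0 of 5 and had 0 of 5 at that unadjusted threshold. In all DESeq2 counts given, a gene without a DESeq2 value was counted as not passing. The log2 differences were 0.07 ± 0.069 for Abhd1 (edgeR adjusted p = 0.664), 0.06 ± 0.053 for Cgref1 (0.644), 0.04 ± 0.028 for Atraid (0.512), -0.02 ± 0.043 for Mrpl33 (0.868) and 0.57 ± 0.463 for Gm2420 (0.578). The 95% intervals were -0.07 to 0.20 for Abhd1, -0.05 to 0.16 for Cgref1, -0.01 to 0.09 for Atraid, -0.10 to 0.06 for Mrpl33 and -0.34 to 1.48 for Gm2420. For Abhd1 a difference of more than 1.15-fold in either direction thus lies outside the interval, and for Gm2420 the counts leave a wide one.

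In Msh3+/- over Msh3+/+, 0 of 5 were called by edgeR or by DESeq2 (0.0512% of all genes by edgeR), and neither tool had any at an unadjusted p under 0.05, which 8.14% of all genes reached. The differences ran from -0.04 ± 0.071 for Abhd1 to 0.23 ± 0.489 for Gm2420. Of the pairwise contrasts, Q140 x Msh3-/- over Q140 called 0 of 5 (0.102% of all genes), Q140 x Msh3+/- over Q140 0 of 5 (0.0307%), Msh3-/- over WT 0 of 5 (0.113%) and Msh3+/- over WT 0 of 5 (0.0307%), with edgeR. None of the 5 had an unadjusted edgeR p under 0.05 in these 4, beside 6.86% of all genes in Q140 x Msh3-/- over Q140, 6.22% in Q140 x Msh3+/- over Q140, 10.8% in Msh3-/- over WT and 4.96% in Msh3+/- over WT. DESeq2 called 0 of 5 in each, with 1 of 5 at an unadjusted p under 0.05 in Msh3+/- over WT. Unlike the averaged contrasts, these 4 are not free of the choice of the genes, since each shares libraries with Q140 contrasts that made it. Among carriers, Abhd1 in Q140 x Msh3-/- over Q140 differed by 0.14 ± 0.083 on the log2 scale (edgeR adjusted p = 0.745), and Atraid by 0.02 ± 0.040 (adjusted p = 0.923).

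**Figure D3:**
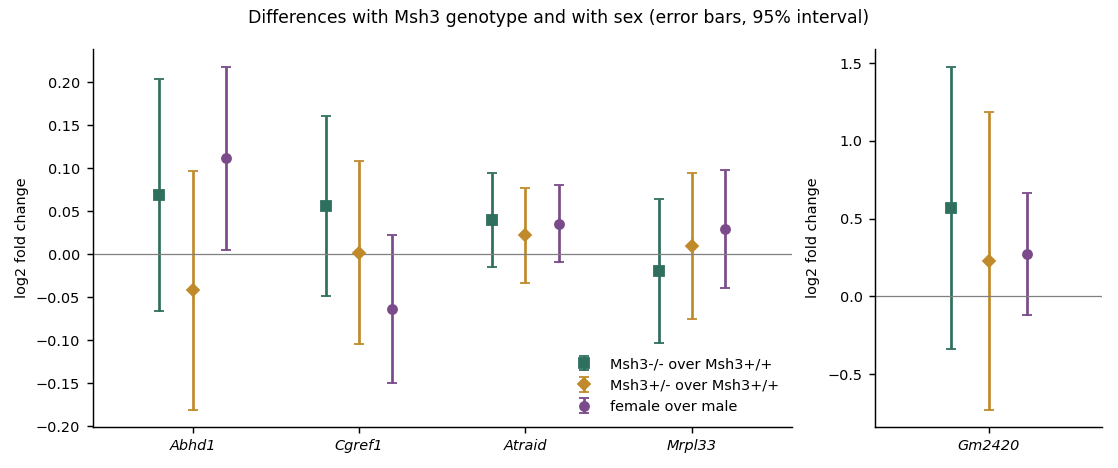
Log2 fold change with its 95% interval (vertical axes, the right panel on its own scale) for each gene in Msh3-/- over Msh3+/+, in Msh3+/- over Msh3+/+ and in females over males, all averaged over the other factors. All intervals include 0 except that of Abhd1 in females over males, from 0.005 to 0.218, whose adjusted p is 0.274.

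Sex was balanced over the groups and had no part in the choice either, but the 7 libraries rich in choroid plexus or pituitary markers were all male non-carriers. None of the 5 genes was called in females over males, where 4.28% of all genes were, and 1 of 5, Abhd1, had an unadjusted edgeR p under 0.05 (17.4% of all genes), while DESeq2 had 0 of 5. The log2 difference of Abhd1 was 0.11 ± 0.055 (edgeR adjusted p = 0.274), and 0.13 ± 0.060 without those 7 libraries (adjusted p = 0.314). In carriers, Abhd1 had 6.91 ± 0.676 CPM in females and 6.08 ± 0.663 CPM in males, and in non-carriers 2.87 ± 0.533 CPM in females and 2.93 ± 0.483 CPM in males (SD, n = 12). The difference with Q140 in females minus that in males was 0.22 ± 0.111 (log2) for Abhd1, with an edgeR adjusted p of 0.9998 and an unadjusted p of 0.058, and 0.27 ± 0.140 without the 7 libraries (unadjusted p = 0.0557).

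For the other genes, the difference in females minus that in males was 0.03 ± 0.089 for Cgref1, -0.03 ± 0.046 for Atraid, -0.03 ± 0.071 for Mrpl33 and 0.42 ± 0.785 for Gm2420. No gene of the 19547 passed adjustment with edgeR in that comparison (0%), and 2.58% had an unadjusted p under 0.05. None of the 5 was among these with edgeR, and DESeq2 likewise had 0 of 5. In females over males, Cgref1 differed by -0.06 ± 0.044, Atraid by 0.04 ± 0.023, Mrpl33 by 0.03 ± 0.035 and Gm2420 by 0.27 ± 0.201 on the log2 scale. A p above the threshold does not show that females and males are alike.

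Other genes near Htt were called with Q140 as well. Of the 142 other tested genes that start within 5 Mb of Htt, 10 were called with edgeR (7.04%), 7 higher and 3 lower in carriers. From 5 to 20 Mb 0 of 187 were called. Beyond 20 Mb on chromosome 5 it was 16 of 1043 (1.53%), and on other chromosomes 257 of 18169 (1.41%). An unadjusted edgeR p under 0.05 was reached by 42 genes within 5 Mb (29.6%) and by 24 from 5 to 20 Mb (12.8%). On other chromosomes 14.9% reached it. The sizes were small, since the median absolute log2 difference was 0.056 within 5 Mb, 0.052 from 5 to 20 Mb and 0.042 on other chromosomes. The share within 5 Mb was not tested against the rest, and the count of 10 was 3 with plate column in the model and 4 without the 7 libraries rich in choroid plexus or pituitary markers.

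The 7 higher genes were Drc1, Slc5a6, Cad, Zfp513, Nrbp1, Ctbp1 and Crmp1. Drc1, which encodes a part of the dynein regulatory complex of cilia, differed by 0.12 ± 0.031 (log2, edgeR adjusted p = 0.0250), and Zfp513, a zinc finger gene, by 0.11 ± 0.026 (adjusted p = 0.0222). Nrbp1, which encodes a pseudokinase, differed by 0.06 ± 0.018 (edgeR adjusted p = 0.0484), a call lost in 39 of the 48 fits that left out a replicate, and Ctbp1, a transcriptional corepressor, by 0.08 ± 0.021 (adjusted p = 0.0276). Crmp1, a collapsin response mediator of neurons, differed by 0.08 ± 0.018 (edgeR adjusted p = 0.00904).

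Among the 3 lower genes, the neighbours Evc and Evc2, which encode partner proteins of the cilium base in hedgehog signalling and lie on the far side of Htt, differed by -0.19 ± 0.046 and -0.13 ± 0.036 (edgeR adjusted p = 0.0190 and 0.0410), and Evc2 lost its call in 21 of the 48 fits that left out a replicate. Each of the 9 differences given was smaller in size than those of the 5 genes, which were chosen for their differences. Of 22 tested neighbours of Abhd1, Cgref1 and Atraid, 4 were called higher and 0 lower, with a median of 0.03. None of 9 listed neighbours of Mrpl33 and none of 24 listed neighbours of Htt was called with edgeR, with 3 and 6 at an unadjusted p under 0.05. The list does not hold every tested gene near Htt, and within 1 Mb of it 1 of 35 was called. Between Emilin1, at -0.29, and Krtcap3, at 0.31, the neighbours of Abhd1, Cgref1 and Atraid that were not called spanned both signs. Emilin1 and Krtcap3 differed by more in size than Atraid and Mrpl33, with larger standard errors.

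**Figure D4:**
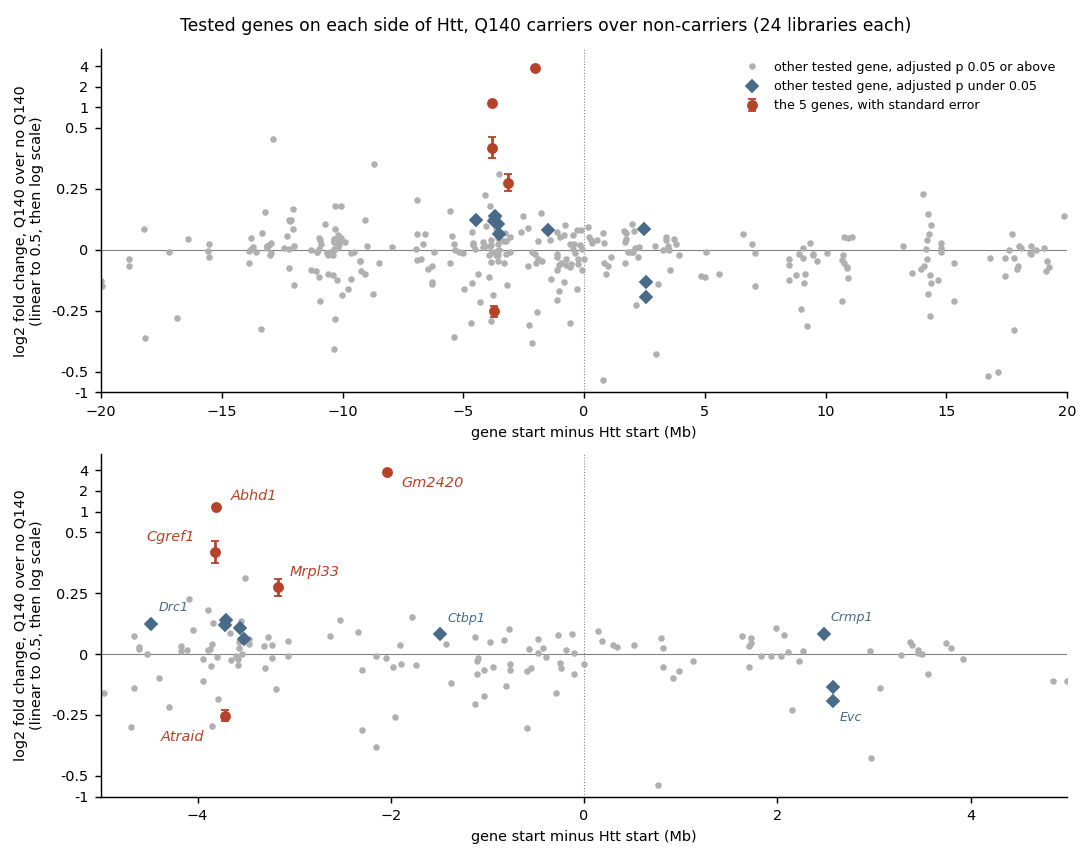
Log2 fold change of Q140 carriers over non-carriers (vertical axes, linear to 0.5 and logarithmic beyond) against the distance of a gene's start from that of Htt in Mb, within 20 Mb (top) and within 5 Mb (bottom). The 5 genes stand on the left of Htt with standard errors, the 9 other genes shown with an adjusted p under 0.05 lie between -0.19 and 0.14, and none is called from 5 to 20 Mb.

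Of 18 other tested genes of the Abhd family, Abhd1 left out, 0 were called higher and 1 lower, with a median of -0.002. The called one was Abhd3, at -0.12 ± 0.027 (log2, edgeR adjusted p = 0.0125), and 6 of 18 had an unadjusted p under 0.05. Over all genes tested, 139 were called higher and 149 lower in carriers, and 15.1% had an unadjusted p under 0.05.

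The patterns most alike to these genes were partly each other. Likeness is Pearson's r of log2 CPM over the 48 libraries against the other genes with a mean count of at least 20, which leaves Gm2420 out as a partner (16878 genes, and 16879 for Gm2420 itself), and it includes the difference with Q140 that chose the genes. Among these genes, Abhd1 was most like Cgref1 (r = 0.83), Tmc3 (0.74), which encodes a transmembrane channel-like protein, and Mrpl33 (0.68), and least like Atraid (-0.81). Cgref1 was most like Abhd1, Uchl1 (0.80), a neuronal deubiquitinase gene, and Maz (0.74). Atraid was most like Kalrn (0.70), which encodes an exchange factor of synapses, Ddit4l (0.65) and Tspan2 (0.64).

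Among the same genes, Mrpl33 was most like Abhd1 (r = 0.68), Tmc3 (0.67) and Cgref1 (0.62). Gm2420 was most like Abhd1 (0.85), Mrpl33 (0.77), each a higher r than that gene had with any gene of the set, and Enpp6 (0.75), which encodes a choline-releasing phosphodiesterase of oligodendrocytes. Within genotype and sex, where the difference with Q140 has been removed, the 10 pairs of the 5 genes gave no relation that held after adjustment over the 10 pairs. The strongest was Abhd1 with Cgref1, with Pearson's r = 0.44 (permutation p = 0.0259, adjusted 0.238) and Spearman's ρ = 0.28 (p = 0.0543, adjusted 0.397) over 48 libraries. Without the 2 libraries farthest from the median, which were WT replicates F3 and F4, r was 0.24.

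The differences of the 5 genes with Q140 kept their direction within each plate column. Library plates had 6 columns, which held between 2 and 7 carriers and between 1 and 6 non-carriers, and 1 column had a lone non-carrier. Within columns, Abhd1 was higher in carriers by 1.06 to 1.25 on the log2 scale, Cgref1 by 0.25 to 0.50 and Mrpl33 by 0.21 to 0.35, while Atraid differed by -0.28 to -0.19. For Gm2420, the difference of mean log2 CPM within columns was 2.11 to 3.35. The columns divide the libraries whose difference with Q140 chose the genes, so the shared direction follows in part from that choice. Without the 7 libraries rich in choroid plexus or pituitary markers, Atraid differed by -0.23 with Q140 over all Msh3 genotypes, beside -0.25 with them. The levels of astrocyte genes also moved with Q140, and their part in these differences was not tested.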

How the data were processed

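The authors deposited whole-number counts per Ensembl gene, not normalized, and FPKM values for the same 48 libraries of mouse cortex. Per the submitters' processing notes, the tools were HTSeq 0.12.3, STAR 2.7.5c and SAMtools 1.10, with mm10 and GRCm38 as builds, each named without a role. Per the labels' protocols the library kit was Illumina TruSeq stranded. The annotation release and the strand setting are not given in the sources used here. The lengths behind the deposited FPKM equalled the exon union of GENCODE M21 to within 0.5 bases in 1349 of 1359 genes of chromosome 5, and of the 48795 genes 48349 matched that annotation.

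Genes were filtered with filterByExpr by group (minimum count 10, minimum total 15), which left 19547, and scaled by TMM. An edgeR 4.0.16 quasi-likelihood model (R 4.3.3, limma 3.58.1) with 6 groups and sex was fitted to all 48 libraries, after a check on simulated counts, and p-values were adjusted by Benjamini-Hochberg over all genes tested, two-sided, with a threshold of 0.05. Averaged contrasts are means of the contrasts on each Msh3 genotype, or with and without Q140. Standard errors of edgeR differences were derived from the fitted difference and the statistic of its quasi-likelihood test. Intervals are 95% intervals of the fitted difference by the normal approximation from these standard errors. An interval that ends near 0 can therefore disagree with the edgeR p. Replicates are labelled as separate samples, with their sex, and library totals were 37.7 to 68.3 M counts. Some libraries share the prefix of their sample name, as do WT replicates M2 and M3, and the main fit treats all 48 as independent. DESeq2 1.42.0 and other settings were run as alternatives. Relations within genotype and sex used 100000 permutations. Transcripts were compared with blastn 2.17.0 (at least 200 bases and 90% identity) and aligned with Biopython 1.88.

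The genes described and all lists were chosen with earlier results of these data known. By rule the text names the 5 genes, Htt, their direct neighbours, called genes within 5 Mb of Htt, the 3 genes most alike to each and called members of each list, and neighbours named for their range were picked after their values were seen. Of the called genes within 5 Mb of Htt, 1 is not reported here.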

Additional observations from a re-analysis of the deposited data

Results flagged for a closer look

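In the 30 sets of 8 libraries (5 genes in 6 genotypes), 3 had a library that stood apart from the other 7 by Dixon's test at the 95% level, where chance gives about 1 in 20. Cgref1 had 13.4 CPM in Q140 x Msh3-/- replicate M3, and the next highest of that group had 11.5 CPM. Gm2420 had 0.712 CPM in Q140 x Msh3-/- replicate F1, beside 0.465 CPM in the next. Gm2420 had 0.141 CPM in Msh3-/- replicate F4, from 6 counts, beside 0.0660 CPM in the next. Without Msh3-/- replicate F4 the log2 difference of Gm2420 with Q140 on Msh3-/- was 3.67, against 3.25 with it.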

How the results depend on the processing

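The differences of the 5 genes with Q140 kept their direction under every alternative run, averaged and on each Msh3 genotype. All alternatives drew on the libraries whose difference with Q140 chose the genes. Leaving out each replicate in turn, the averaged log2 difference was 1.15 to 1.19 for Abhd1, 0.40 to 0.44 for Cgref1, -0.26 to -0.24 for Atraid, 0.26 to 0.29 for Mrpl33 and 3.69 to 3.98 for Gm2420. None of the 5 was called with Msh3 genotype, sex or Q140 by sex under any alternative run, and the small differences there changed sign as follows, from causes that were not tested.

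Without WT replicates F3 and F4 (chosen after seeing the data), Msh3-/- over Msh3+/+ was -0.0078 for Abhd1, -0.012 for Cgref1 and 0.0024 for Mrpl33, Msh3+/- over Msh3+/+ was -0.066 for Cgref1, and the Q140 difference in females minus males was -0.074 for Cgref1 and 0.0033 for Mrpl33. Without the 7 libraries rich in choroid plexus or pituitary markers, Msh3+/- over Msh3+/+ was 0.018 for Abhd1 and -0.0037 for Mrpl33, and Msh3-/- over Msh3+/+ was 0.010 for Mrpl33. With plate row, Msh3+/- over Msh3+/+ was -0.045 for Cgref1, Msh3-/- over Msh3+/+ was 0.0078 for Mrpl33, females over males was -0.15 for Gm2420 and females minus males was 0.054 for Mrpl33. With plate column, Msh3+/- over Msh3+/+ was -0.0079 for Atraid, and females minus males was -0.030 for Cgref1 and 0.016 for Atraid. Msh3+/- over Msh3+/+ for Cgref1 was -0.0037 with DESeq2 and -0.0020 without a covariate, and for Gm2420 it was -0.027 with the name prefix as a random block.

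Leaving out each replicate in turn, Msh3+/- over Msh3+/+ was -0.032 to 0.020 for Cgref1, -0.0054 to 0.027 for Mrpl33 and -0.096 to 0.38 for Gm2420. Msh3-/- over Msh3+/+ was -0.035 to 0.0032 for Mrpl33, and females minus males was -0.021 to 0.061 for Cgref1 and -0.048 to 0.0043 for Mrpl33.

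The count of 10 other called genes within 5 Mb of Htt was 6 without a filter, 3 with plate column, 5 with plate row, 4 without the 7 marker-rich libraries and 6 without WT replicates F3 and F4, and 7 to 13 leaving out each replicate. Nrbp1 lost its call in 39 of 48 such fits, Evc2 in 21, Ctbp1 in 4 and Cad in 2. Over all genes the 288 calls were 463 with DESeq2, 102 with plate column, 157 with plate row, 121 without the marker-rich libraries and 172 without WT replicates F3 and F4. They were 201 to 475 leaving out each replicate, the lowest without Msh3+/- replicate M2 and the highest without Msh3-/- replicate F3. Over all alternatives, calls ran from 23 to 135 in Msh3-/- over Msh3+/+ (42), 433 to 980 in females over males (837), 7 to 31 in Q140 over WT (20), 7 to 22 in Q140 x Msh3+/- over Msh3+/- (10), 2 to 5 in Q140 x Msh3-/- over Msh3-/- (4), 10 to 28 in Q140 x Msh3-/- over Q140 (20), 13 to 26 in Msh3-/- over WT (22) and 1 to 10 in Msh3+/- over WT (6).

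Same-numbered replicates had a median correlation of deviations of -0.013 over 120 pairs, beside -0.023 over 360 other pairs of the same sex. The highest was 0.54 in the former and 0.26 in the latter, and 9 of 48 libraries correlated best with their own number. The main fit did not pair the numbers. With a replicate block the averaged differences were 1.17 for Abhd1, 0.42 for Cgref1, -0.25 for Atraid, 0.27 for Mrpl33 and 3.75 for Gm2420, and all genes called numbered 310. Depth limits Gm2420 most, with 35 counts in all non-carriers, and DESeq2 gave it no adjusted p in the averaged contrast.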
